A study of Mus musculus with 4 samples.

Results

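Circular RNAs (circRNAs) of the mouse penumbra were set against those of the infarct core close to the occipital lobe. The comparison rests on 1 library a side. Members were the circRNAs with 10 or more counts over these 2 libraries, which 3301 of the 23980 deposited circRNAs reached. At the edge of this rule, 285 circRNAs had exactly 10 counts over both libraries, with medians of 6 in penumbra and 4 in core occipital. Just outside, 397 had 9 counts, with medians of 5 and 4 in the same order.

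Both tissues were taken 3 h after a filament had closed the middle cerebral artery of mice for good (MCAO, a stroke model), so the occlusion is common to both sides and neither is an unoperated reference. For each tissue the RNA of 6 mice was mixed before the library was made, and whether both tissues came from the same mice is not known here. The sources used here give no strain, sex or age. The penumbra is the rim of tissue that receives too little blood but is not yet lost. A core from near the frontal lobe and cortex of sham-operated mice were also sequenced and are not used below. With pooled RNA and no replicate library, no difference has a replicate check, and every test compares these libraries, not the conditions. In pooled tissue, fewer cells of a type and less circRNA per cell cannot be told apart.

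A circRNA forms when the spliceosome joins the end of an exon back to the start of the same exon or of one upstream. The closed ring has no free ends for exonucleases and so outlives most linear transcripts. Brain is rich in circRNAs, many from synaptic genes. Sequencing sees a circRNA by reads that cross its back-splice junction, and each count is such a read.

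The junctions on which the results below turn are printed 5′ to 3′ as 20 bases before and 20 bases after the back-splice. Lower case marks the end of the last exon, and capitals mark the start of the first exon, so the join lies where the case changes. The Nectin3 inner start is the exception, as its capitals begin 17 bases inside exon 6. They were read from GENCODE M21 transcripts on GRCm38 and all lie in coding exons. The pairs of Rasa2 and of Cadps2 share their capitals because they start at the same exon and differ only in the exon that is joined to it.
Nectin3 exons 6 to 7 (chr16:46436354-46438068, minus strand): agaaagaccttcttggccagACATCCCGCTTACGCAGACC
Nectin3 inner start (chr16:46436354-46438051, minus strand): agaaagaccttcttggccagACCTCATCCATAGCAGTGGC
Ssbp2 exons 2 to 4 (chr13:91524585-91564694, plus strand): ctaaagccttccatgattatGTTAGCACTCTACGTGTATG
Stxbp5l exons 19 to 21 (chr16:37174297-37188720, minus strand): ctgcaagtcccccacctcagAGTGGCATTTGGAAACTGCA
Kcnh5 exons 4 to 7 (chr12:75087405-75131026, minus strand): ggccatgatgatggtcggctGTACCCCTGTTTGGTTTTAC
Rasa2 exons 2 to 5 (chr9:96591950-96611499, minus strand): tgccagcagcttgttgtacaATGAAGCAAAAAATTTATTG
Rasa2 exons 2 to 4 (chr9:96602713-96611499, minus strand): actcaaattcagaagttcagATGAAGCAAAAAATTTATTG
Cadps2 exons 15 to 29 (chr6:23287664-23390486, minus strand): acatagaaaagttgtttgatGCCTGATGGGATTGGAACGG
Cadps2 exons 15 to 18 (chr6:23381057-23390486, minus strand): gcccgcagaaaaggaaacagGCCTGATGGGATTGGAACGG
Exoc6 exons 2 to 18 (chr19:37570383-37609105, plus strand): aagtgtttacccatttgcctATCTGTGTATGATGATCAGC

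The circRNA count totalled 96349 in the penumbra library and 83090 in the core occipital library, and values are given as counts or as CPM, counts scaled to a common total in each library. A level of 3 counts corresponds to 31.1 CPM in penumbra and 36.1 CPM in core occipital. Of all circRNAs, 11368 were seen in both libraries. They made up 68.6% of those seen in penumbra and 71.4% of those seen in core occipital, and carried 90.5% of the penumbra counts and 91.1% of the core occipital counts. The 5202 circRNAs seen in penumbra alone and the 4553 seen in core occipital alone held the remainder on each side. These numbers are not matched for depth, and the penumbra library was the deeper. Drawn down to the core occipital total, penumbra would be expected to show 15649 circRNAs, against 15921 seen in core occipital. Members carried 71.9% of the penumbra counts and 71.3% of the core occipital counts.

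Ratios centred near 1, which follows largely from scaling each library to its own circRNA total. A rise or fall of all circRNAs together cannot be seen this way. At most depths a member could be called neither different nor alike. The median CPM ratio of penumbra to core occipital was 1.01, with quartiles of 0.739 and 1.40. How far ratios spread followed the depth. Among the 1689 members with 10 to 19 counts, 31.7% differed by 2-fold or more, against 0.974% of the 308 members with 50 to 99 counts. Of the 82 members with 200 or more counts none did.

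**Figure D1:**
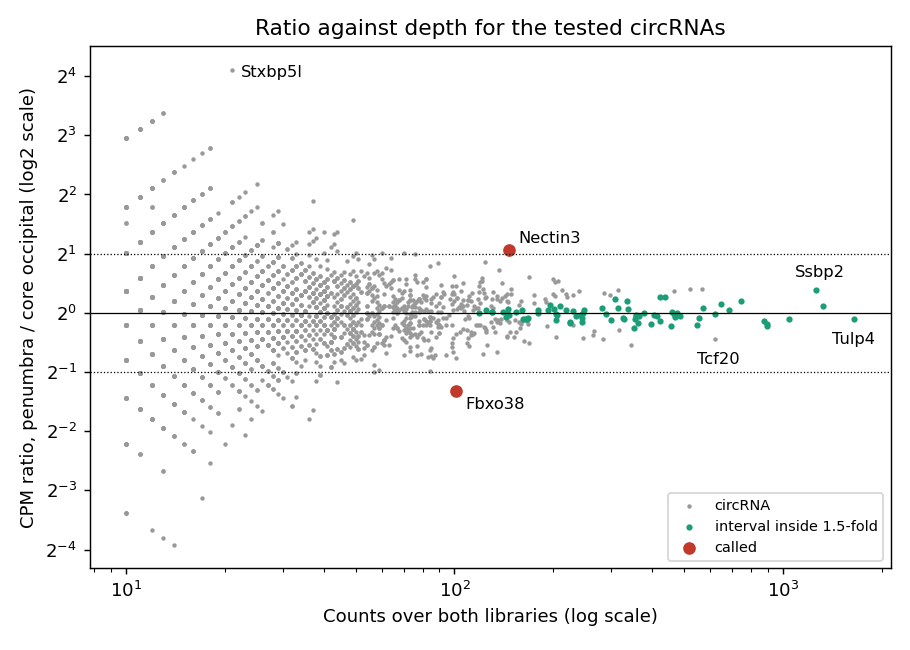
Each point is a circRNA, with its counts over both libraries on the log x axis and its CPM ratio of penumbra to core occipital on the log2 y axis. Dotted lines mark 2-fold, red points the 2 called circRNAs and green points the 77 whose 95% interval lies inside 1.5-fold. The spread of ratios narrows as counts rise, and Nectin3 and Fbxo38 lie outside 2-fold at depths where few others do.

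Every ratio below has a 95% exact conditional (Clopper-Pearson) interval in square brackets, which covers counting error only. Without molecular identifiers, reads cannot be taken as independent molecules. By size alone, 378 members (11.5%) were 2-fold or more higher in penumbra and 294 (8.91%) 2-fold or more lower. With TMM factors, which moved log2 ratios by only -0.01, this split was 318 higher and 306 lower. Counts of 7 in penumbra and 3 in core occipital give a ratio of 2.01, which TMM factors bring just under 2. With DESeq2 size factors, which moved log2 ratios by 0.21, the split was 532 higher and 215 lower. Computed over all circRNAs, these factors came out as 1 for both libraries, so here and below they leave the raw counts unscaled. Fisher's exact test (two-sided, Benjamini-Hochberg adjusted over the 3301 members) called a circRNA at an adjusted p under 0.05 and a ratio of at least 2 either way. It called 2 circRNAs (0.0606% of members), 1 higher (0.0303%) and 1 lower (0.0303%). With DESeq2 size factors 4 were higher and 0 lower.

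The circRNA called higher in penumbra was the ring of exons 6 and 7 of Nectin3, an adhesion molecule that joins neighbouring cells at adherens junctions and at contacts between neurites. It had 104 counts in penumbra and 43 in core occipital. This is 1079 CPM against 518 CPM, a ratio of 2.09 [1.45–3.05] (adjusted p = 0.0331, Fisher's exact test). Exons 6 and 7 code for the stretch of the protein that crosses the membrane and the start of its inner tail. The whole ring has 224 bases, a length that is not a multiple of 3. It is shown here because it carries the only call in this direction, from the first base of exon 6 to the last of exon 7. Capitals mark the 20 bases at each end, which the back-splice joins.
Nectin3 ring (chr16:46436354-46438068, minus strand, GRCm38): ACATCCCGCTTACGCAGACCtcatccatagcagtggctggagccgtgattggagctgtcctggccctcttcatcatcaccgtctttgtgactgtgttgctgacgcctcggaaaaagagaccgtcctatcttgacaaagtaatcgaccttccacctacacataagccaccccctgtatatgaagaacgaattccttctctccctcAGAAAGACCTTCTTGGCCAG

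Nectin3 gave 6 further circRNAs in these libraries. Together they had 20 counts in penumbra and 13 in core occipital, a ratio of 1.33 [0.628–2.90], whose interval holds both no difference and the ratio of the called ring. The ring of exons 2 to 7 ends at the same base as the called one and had 7 counts in penumbra and 6 in core occipital. A junction that opens 17 bases inside exon 6, directly after an AG, had 5 counts in penumbra and 0 in core occipital. It is the second junction printed above, and its ring would hold 207 bases, a multiple of 3. The ring of exons 6 and 7 made up 83.9% of the Nectin3 circRNA counts in penumbra and 76.8% in core occipital.

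The circRNA called lower in penumbra joins exons 2 to 14 of Fbxo38 (chr18:62516964-62541046), which begins in untranslated sequence. Fbxo38 is an F-box protein, the part of an SCF ubiquitin ligase that binds the substrate. It had 32 counts in penumbra and 69 in core occipital. This is 332 CPM against 830 CPM, a ratio of 0.400 [0.254–0.617] (adjusted p = 0.0148, Fisher's exact test). The ring spans 13 exons and 1959 spliced bases. No other circRNA of Fbxo38 was counted in either library.

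Both calls rest on a test that sees counting error alone. Over the 214 members with 100 or more counts, squared deviations from equal CPM averaged 2.00 times what counting error gives, which corresponds to 10.2% of further variation in each library. It was estimated from the ratios between these same libraries, so noise and tissue difference cannot be told apart in it. A test that takes this variation as noise, here and below, therefore cannot decide whether a difference is real. With a coefficient of variation of 0.1, chosen after seeing this, edgeR's exact test called neither (adjusted p = 0.827 for Nectin3 and 0.527 for Fbxo38). It called 0 members in all, with 145 at an unadjusted p under 0.05. DESeq2 size factors, which left the counts unscaled, also ended the Fbxo38 call (ratio 0.464, adjusted p = 0.0704, Fisher's exact test). Such factors taken over members alone, a choice made after seeing the data, kept it (ratio 0.397, adjusted p = 0.0138, Fisher's exact test).

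One of the most abundant members passed the adjusted p without reaching 2-fold, which brought the members past an adjusted p of 0.05 to 3 (0.0909%). Exons 2 to 4 of Ssbp2, a cofactor of LIM-domain transcription complexes, had 762 counts in penumbra and 500 in core occipital. This is 7909 CPM against 6018 CPM, a ratio of 1.31 [1.17–1.47] (adjusted p = 0.00543, Fisher's exact test). With the coefficient of variation of 0.1 its adjusted p was 1. The other 13 circRNAs of Ssbp2 had 68 counts in penumbra and 63 in core occipital, a ratio of 0.931 [0.651–1.33]. Among them, the ring of exons 2 to 5 starts at the same base and had 29 counts in penumbra and 33 in core occipital. The exon 2 to 4 ring made up 91.8% [89.7–93.6] of Ssbp2 circRNA counts in penumbra and 88.8% [85.9–91.3] in core occipital (exact binomial intervals, which overlap). The ring has 220 bases, printed in full because it is the deepest member with a difference past the adjusted p.
Ssbp2 ring (chr13:91524585-91564694, plus strand, GRCm38): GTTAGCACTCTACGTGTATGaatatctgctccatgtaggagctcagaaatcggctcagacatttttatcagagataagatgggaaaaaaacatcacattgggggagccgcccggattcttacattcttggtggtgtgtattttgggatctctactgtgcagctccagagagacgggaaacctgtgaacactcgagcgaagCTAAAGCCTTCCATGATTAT

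Besides Nectin3 and Ssbp2, 8 members make up the 10 with the smallest p that were higher in penumbra, and none of the 8 was called. Exons 19 to 21 of Stxbp5l (tomosyn-2, which restrains SNARE assembly at release sites) had 20 counts in penumbra and 1 in core occipital, a ratio of 17.2 [2.76–715] (adjusted p = 0.0577, Fisher's exact test). Vrk2, a kinase gene, had 38 counts in penumbra and 11 in core occipital for exons 3 to 7 (2.98 [1.49–6.46]). Ubn2, of a histone chaperone, had 30 and 7 counts in the same order for exons 7 to 12 (3.70 [1.59–9.97]). The kinase gene Lmtk2 had 21 counts in penumbra and 4 in core occipital for exons 4 to 7 (4.53 [1.53–18.1]). Exons 5 and 6 of Bcl2l13, a mitochondrial membrane protein that recruits the autophagy machinery, had 84 counts in penumbra and 40 in core occipital (1.81 [1.23–2.71]). The ring of the untranslated exons 2 and 3 of Atxn1, the ataxin-1 gene, had 343 counts in penumbra and 224 in core occipital (1.32 [1.11–1.57]). The other two, of Asap1 and Phip, had no counts in core occipital and are described further on. The adjusted p of the 7 after Stxbp5l lay between 0.209 and 0.336 (Fisher's exact test).

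The 9 members that follow Fbxo38 among those lower in penumbra had adjusted p between 0.0973 and 0.336 (Fisher's exact test) and were not called. Exon 2 of Tcf20, a transcriptional coregulator (chr15:82851513-82857284), had 286 counts in penumbra and 335 in core occipital, a ratio of 0.736 [0.627–0.865]. Fmn1, a formin gene of actin assembly, had in its exon 2 152 counts in penumbra and 192 in core occipital (0.683 [0.548–0.849]). These pairs are deep and differ by less than 1.5-fold. The other 7 are shallow and differ by more. Exons 4 to 7 of Kcnh5, a voltage-gated potassium channel, had 10 counts in penumbra and 27 in core occipital (0.319 [0.138–0.681]). Exons 9 to 19 of Arhgap10 had 9 and 27 counts in the same order (0.287 [0.119–0.630]). Exons 15 to 29 of Cadps2, a priming factor of dense-core vesicles, had 3 counts in penumbra and 15 in core occipital (0.172 [0.0320–0.610]). Exons 2 and 3 of Epb41l2, a membrane-skeleton protein, had 2 and 15 counts in the same order (0.115 [0.0128–0.494]). Junctions of Arid1b (a BAF chromatin remodeler subunit, with 1 end on an exon boundary), of Ncam2 (a neural adhesion molecule) and of Dennd1a (an activator of Rab35) each had 1 count in penumbra, with 13, 12 and 11 counts in core occipital.

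**Figure D2:**
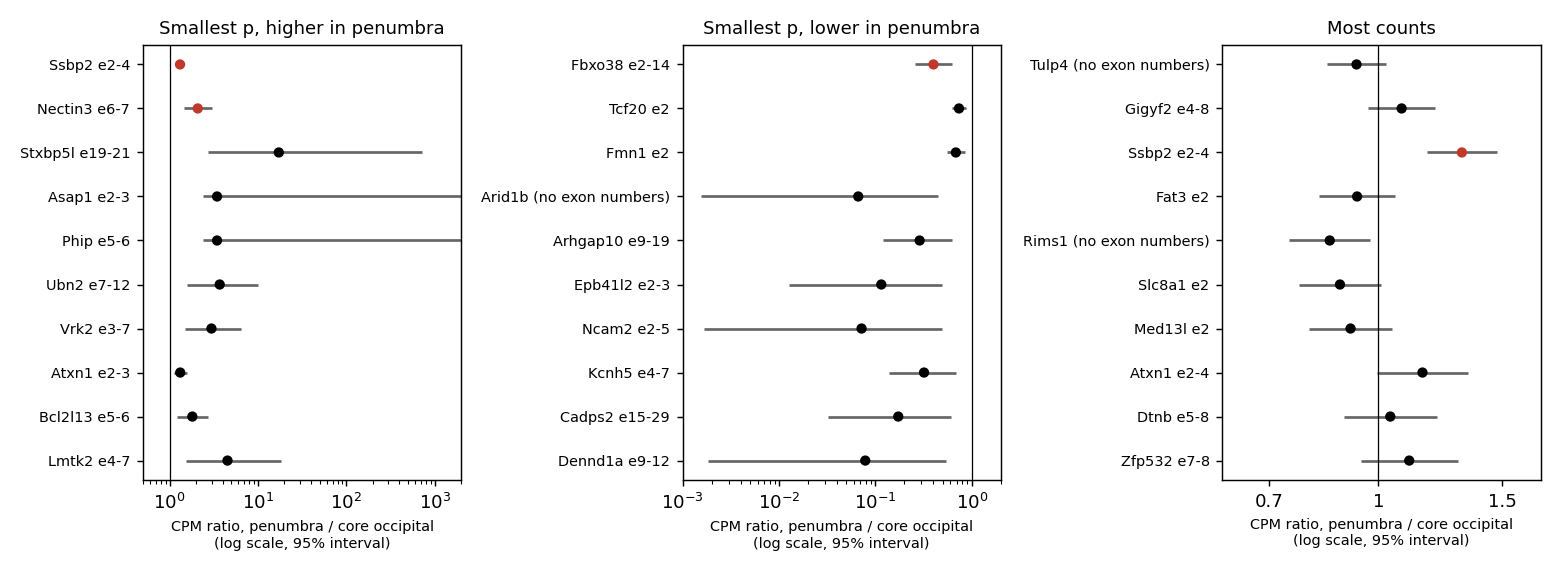
Points are CPM ratios of penumbra to core occipital on log x axes and lines their 95% exact conditional intervals, for the 10 members with the smallest p in each direction and the 10 with the most counts (e: exons). Red points have an adjusted p under 0.05, and the points of Asap1 and Phip stand at the floor of 3 counts, with no upper limit, because core occipital had 0 counts. Ratios far from 1 have wide intervals, and the 10 members with the most counts lie between 0.853 and 1.31.

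In all, 4 members were at 0 in one of the libraries, each of them in core occipital. Exons 2 and 3 of Asap1, which acts on Arf GTPases at the cell edge, and exons 5 and 6 of Phip, a bromodomain protein, each had 12 counts in penumbra and 0 in core occipital. With the floor of 3 counts in place of 0 in the core occipital library, each had a ratio of 3.45. At the observed counts the lower interval limit was 2.40. Exons 2 to 8 of Smg6, the endonuclease of nonsense-mediated decay, and exons 3 and 4 of Khdrbs3, a neuronal splicing regulator, each had 10 counts in penumbra and 0 in core occipital. By the same floor their ratio was 2.87, with a lower interval limit of 1.93 at the observed counts. The floor replaced counts of 0 only. Ratios on 1 count in core occipital, such as 17.2 for Stxbp5l, are therefore not comparable with these floored ratios. The adjusted p was 0.209 for the rings of Asap1 and Phip and 0.336 for those of Smg6 and Khdrbs3 (Fisher's exact test). In the other direction, the highest core occipital count of any circRNA with 0 counts in penumbra was 9, which kept all of these under the member rule.

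What stayed alike, as a share of each library's circRNA counts, was judged by the interval, since a high p does not show likeness. For 77 members (2.33%) the 95% interval lay wholly inside 1.5-fold, which bounds a difference and does not show that there is none. For 2 of the 77 the interval left out a ratio of 1, the Ssbp2 ring above and a Rims1 ring described next. All 77 had 119 or more counts, and 26 of the 30 members with 400 or more counts were among them. They held 16.5% of the penumbra counts and 16.7% of the core occipital counts. For 12 the interval stayed within 25% by the same measure.

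The most abundant ring of both libraries came from Tulp4, with 855 counts in penumbra and 792 in core occipital, a ratio of 0.931 [0.844–1.03]. Exons 4 to 8 of Gigyf2, of a translational repressor, had 737 counts in penumbra and 589 in core occipital (1.08 [0.967–1.20]). Exon 2 of Fat3, a giant cadherin, had 544 and 503 counts in the same order (0.933 [0.825–1.06]). These values differ by no more than the further variation seen across deep members. A Rims1 ring of the presynaptic active zone (chr1:22346293-22393948) had 445 counts in penumbra and 450 in core occipital, 0.853 [0.746–0.974]. Its unadjusted p was 0.0171 and its adjusted p 0.534 (Fisher's exact test). Exon 2 of Slc8a1, the sodium-calcium exchanger that neurons use to clear calcium, had 452 counts in penumbra and 442 in core occipital (0.882 [0.772–1.01]). Exon 2 of Med13l, of the Mediator kinase module, had 451 counts in penumbra and 426 in core occipital (0.913 [0.798–1.04]). With Ssbp2, 3 further members complete the 10 with the most counts. Atxn1 exons 2 to 4 had 426 counts in penumbra and 318 in core occipital (1.16 [0.997–1.34]). Dtnb exons 5 to 8, of a dystrobrevin, had 375 and 311 counts in the same order (1.04 [0.892–1.21]). Zfp532 exons 7 and 8, of a zinc finger protein, had 363 counts in penumbra and 283 in core occipital (1.11 [0.944–1.30]). With DESeq2 size factors, so on unscaled counts, the ratios of Tulp4, Fat3, Med13l and Slc8a1 were above 1, at 1.08, 1.08, 1.06 and 1.02. The 10 most abundant circRNAs of the penumbra and the 10 of core occipital had 9 in common, and the 100 most abundant of each had 87 in common. The first 10 held 5.62% of the counts in penumbra and 5.62% in core occipital.

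Some deep members had nearly the same CPM on both sides. Exon 3 of Kcnj6, a G protein-gated potassium channel that slows neuronal firing, had 256 counts in penumbra and 220 in core occipital (1.00 [0.835–1.21]). Exons 30 to 32 of Rims1, a second ring of this gene (chr1:22346293-22379540), had 203 and 175 counts in the same order (1.00 [0.813–1.23]). So the Rims1 rings that share the end at 22346293 had ratios of 0.853 and 1.00, with intervals that overlap. Exons 2 to 8 of Tasp1, a protease that cleaves nuclear factors, had 132 counts in penumbra and 114 in core occipital (0.999 [0.771–1.29]). Exons 2 and 3 of Elavl3, a neuronal RNA-binding protein, had 96 counts in penumbra and 83 in core occipital (0.997 [0.736–1.35]). Rings of Nfkb1, Acaca, Prkce, Eri3, Arhgap26 and Ep400 complete the 10 members nearest to equality among those with 100 or more counts, and their intervals lay between 0.689 and 1.47.

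Summing all circRNAs of a gene lowers the counting error. Of 5118 host genes seen, 2376 had 10 or more summed counts. Of these, 171 (7.2%) were 2-fold or more higher in penumbra and 144 (6.06%) 2-fold or more lower, and 164 (6.9%) were alike inside 1.5-fold. Fisher's exact test on the sums called 2 hosts (0.0842%), 1 higher (0.0421%) and 1 lower (0.0421%), and 7 hosts (0.295%) had an adjusted p under 0.05. The lower call is Fbxo38 again, which has a single circRNA (adjusted p = 0.0113, Fisher's exact test).

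The host called higher was Exoc6, a subunit of the exocyst, which tethers secretory vesicles to the plasma membrane. Its 9 circRNAs had 36 counts in penumbra and 8 in core occipital, 374 CPM against 96.3 CPM, a ratio of 3.88 [1.77–9.66] (adjusted p = 0.0410, Fisher's exact test). The ring of exons 2 to 18 had 20 counts in penumbra and 5 in core occipital. The other 8 rings had 16 and 3 counts in the same order (4.60 [1.32–24.6]). Of these, 5 were seen in penumbra and not in core occipital, with 1 to 3 counts each. Over all circRNAs, 5202 of the 21123 seen in either library were in penumbra alone. Of the 9 rings, 7 start at exon 2 and had the higher CPM in penumbra. Because Exoc6 was called on the sum of these rings, their shared direction is no separate support for the call. The other 2 had 1 count in each library, too few to compare. With TMM factors the adjusted p was 0.0666 and with a coefficient of variation of 0.1 in edgeR's exact test 0.482, and Exoc6 was not called by either.

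Cadps2, a paralogue of the vesicle-priming factor CAPS, was lower in penumbra by its summed counts. Its 23 circRNAs had 76 counts in penumbra and 118 in core occipital, 789 CPM against 1420 CPM, a ratio of 0.555 [0.411–0.747] (adjusted p = 0.0304, Fisher's exact test), short of 2-fold. Of the 23 rings, 19 had the lower CPM in penumbra, among them exons 15 to 26 with 3 counts on each side. Several of the 19 had only 1 or 2 counts in all. Because Cadps2 was picked by its lower sum, the number of lower rings is no separate support for that sum. Seen in core occipital and not in penumbra were 7, with 1 to 6 counts each. Over all circRNAs, 4553 of the 21123 seen in either library were in core occipital alone. The deepest of the 23 Cadps2 rings, exons 15 to 18, had 23 counts in penumbra and 26 in core occipital (0.763 [0.416–1.39]), while exons 15 to 29, which begin at the same base, had 3 and 15. Exons 19 to 21 had 7 counts in penumbra and 14 in core occipital. Without the deepest ring the remaining 22 had 53 counts in penumbra and 92 in core occipital (0.497 [0.347–0.704]). Exons 5 to 7 went the other way, with 10 counts in penumbra and 4 in core occipital. The sum had an adjusted p of 0.128 with DESeq2 size factors and 0.876 with a coefficient of variation of 0.1 in edgeR's exact test.

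Rasa2, which switches off Ras, had 14 circRNAs with 474 counts in penumbra and 309 in core occipital, a ratio of 1.32 [1.14–1.53] (adjusted p = 0.0410, Fisher's exact test). Its main rings share exon 2 as their start and were both higher. Exons 2 to 5 had 314 counts in penumbra and 206 in core occipital (1.31 [1.10–1.57]). Exons 2 to 4 had 126 counts in penumbra and 76 in core occipital (1.43 [1.07–1.93]). The share of Rasa2 counts on exons 2 to 5 was 66.2% in penumbra and 66.7% in core occipital. Tcf20 was lower by 3 rings that all start at exon 2, with 365 counts in penumbra and 418 in core occipital in sum (0.753 [0.653–0.869], adjusted p = 0.0362, Fisher's exact test). Rasa2 lost its adjusted p with TMM factors (0.0666), and Tcf20 lost it with DESeq2 size factors (ratio 0.873, adjusted p = 0.532). Both had an adjusted p of 1 with a coefficient of variation of 0.1 in edgeR's exact test.

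**Figure D3:**
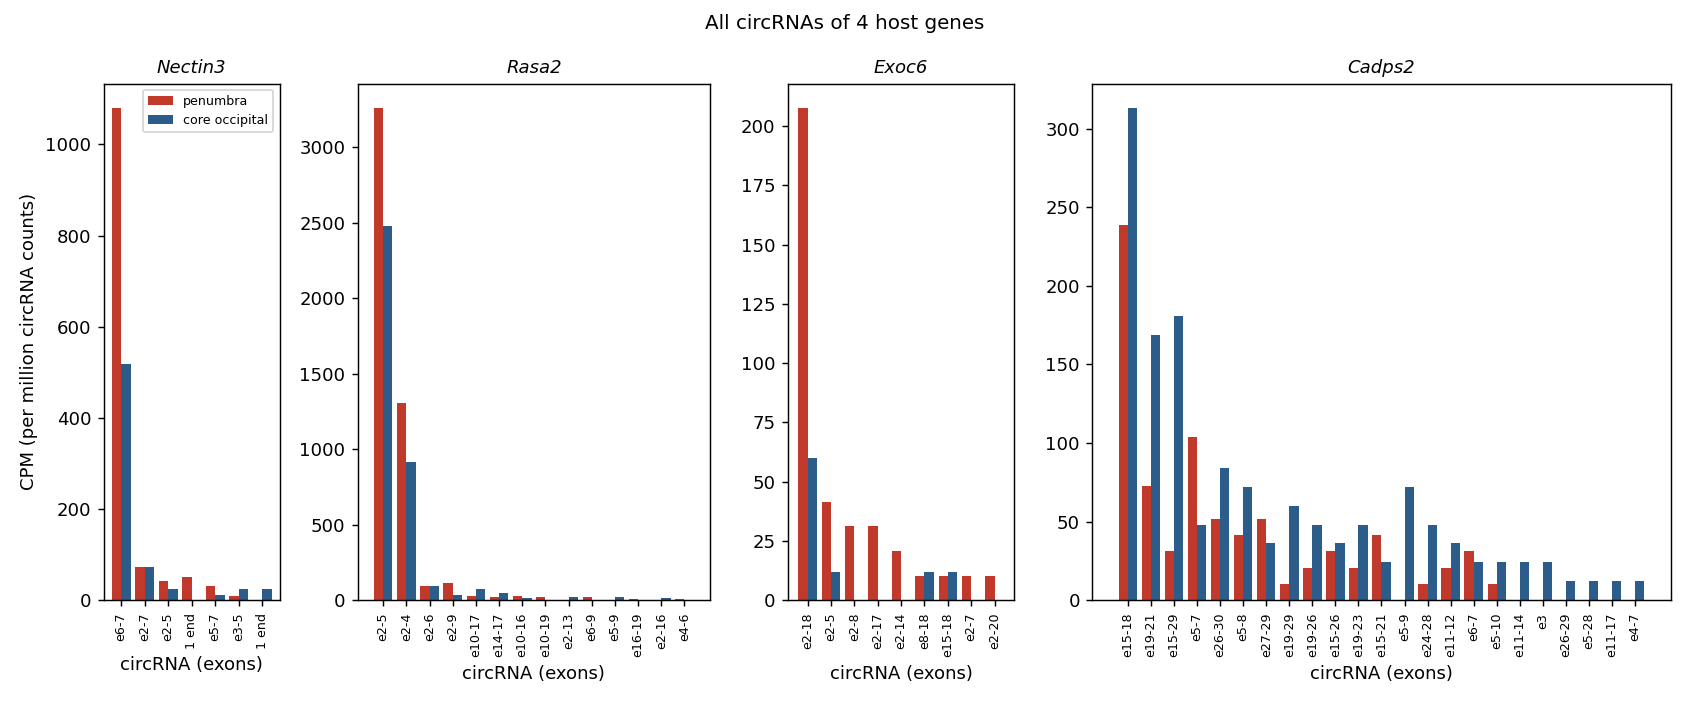
Bars show the CPM of each circRNA of Nectin3, Rasa2, Exoc6 and Cadps2 in penumbra (red) and core occipital (blue), 1 library each, so without error bars. Rings are named by their exons and sorted by counts. One ring carries most of the Nectin3 and Exoc6 counts, and a pair carries most of Rasa2. The 23 Cadps2 rings are spread out, with 19 lower in penumbra, as was the sum by which Cadps2 was picked.

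The sums of Ssbp2 (830 counts in penumbra and 563 in core occipital, 1.27 [1.14–1.42]) and Nectin3 (124 and 56 in the same order, 1.91 [1.38–2.67]) complete the 7 hosts, with adjusted p of 0.0113 and 0.0283 (Fisher's exact test). With a coefficient of variation of 0.1 in edgeR's exact test these were 1 and 0.823, and no host passed. The 5 hosts with the smallest p in each direction also hold 3 with an adjusted p above 0.05. Thoc1, of the complex that couples transcription to messenger RNA export, had 20 counts in penumbra and 2 in core occipital over 4 rings (8.62 [2.09–76.1], adjusted p = 0.0980, Fisher's exact test). Ccdc88a, which encodes the actin-binding protein girdin, had 36 counts in penumbra and 64 in core occipital over 11 rings (0.485 [0.313–0.741], adjusted p = 0.0980, Fisher's exact test). Gas2, which links actin to microtubules, had 76 and 109 counts in the same order (0.601 [0.443–0.813], adjusted p = 0.142, Fisher's exact test).

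Genes of known function were then read as groups, by how many of their members were past 2-fold beside the 11.5% higher and 8.91% lower over all members, and by their median beside 1.01. Of 104 members from genes of transmitter release, 13 were 2-fold or more higher (12.5%) and 11 lower (10.6%), with a median of 0.980 and 0 called. The 3 with the most counts were the Rims1 rings above and Rims2 exons 20 to 22, with 246 counts in penumbra and 222 in core occipital (0.956 [0.794–1.15]). Among those with 30 or more counts the ends of the range were Rims2 exons 14 to 17, with 35 counts in penumbra and 15 in core occipital (2.01 [1.07–3.97]), and Cadps exons 23 to 27, with 11 and 19 in the same order (0.499 [0.215–1.10]).

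Glutamate receptors and their scaffolds gave 77 members, of which 12 were 2-fold or more higher (15.6%) and 11 lower (14.3%), with a median of 0.970 and 0 called. Exons 10 to 12 of Dlgap1, a scaffold of the postsynaptic density, had 193 counts in penumbra and 172 in core occipital (0.968 [0.784–1.20]). Exons 2 to 5 of Homer1, which ties metabotropic receptors to calcium stores, had 189 counts in penumbra and 168 in core occipital (0.970 [0.784–1.20]). Exons 7 to 11 of Grin2b, an NMDA receptor subunit, had 75 counts in penumbra and 70 in core occipital (0.924 [0.658–1.30]), and its exon 5 had 26 and 15 in the same order (1.49 [0.763–3.04]). Among members with 30 or more counts, exon 3 of Nlgn1, a postsynaptic adhesion molecule, had the lowest ratio at 39 counts in penumbra and 55 in core occipital (0.612 [0.395–0.939]).

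Ion channels and pumps gave 80 members, with 6 higher (7.5%), 8 lower (10%), a median of 1.17 and 0 called, while their summed counts had a ratio of 1.01 [0.955–1.06]. Exons 4 to 13 of Kcnt2, a sodium-activated potassium channel, had 129 counts in penumbra and 114 in core occipital (0.976 [0.753–1.27]). Among members with 30 or more counts, exons 12 to 22 of Cacna2d1, an auxiliary calcium channel subunit, had the highest ratio with 35 and 16 counts in the same order (1.89 [1.02–3.65]), and Kcnh5 had the lowest.

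Stress and death genes gave 49 members, with 3 higher (6.12%), 5 lower (10.2%), a median of 1.03 and 0 called. Exon 2 of Hipk3 had 216 counts in penumbra and 190 in core occipital (0.980 [0.803–1.20]), and exons 2 to 5 of the kinase gene Stk39 had 128 and 117 in the same order (0.943 [0.728–1.22]). Exons 2 and 3 of Tlk1, a kinase of chromatin assembly, had 248 counts in penumbra and 211 in core occipital (1.01 [0.840–1.22]). Its longer ring, which adds exon 4 from the same start, had 90 counts in penumbra and 47 in core occipital (1.65 [1.15–2.40]). The intervals of these rings overlap. Exons 12 to 14 of Map3k5, the stress kinase ASK1, had 18 counts in penumbra and 25 in core occipital (0.621 [0.319–1.18]).

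Cell adhesion genes gave 35 members, with 7 higher (20%) and 3 lower (8.57%), a median of 1.15 and 1 called, Nectin3. Among the 7, members from Cntnap5b, Nrcam and Ncam2 (exons 2 to 9) each had 7 counts in penumbra and 3 in core occipital. Their ratio of 2.01 is past 2-fold with total scaling only narrowly, so the 20% depends on the scaling. Their summed counts had a ratio of 1.09 [1.01–1.17], and 1.05 [0.972–1.13] without Nectin3. Pcdh15, a protocadherin, had 48 counts in penumbra and 29 in core occipital (1.43 [0.882–2.35]), and exon 3 of Fat3, the lowest among members with 30 or more counts, had 18 and 25 in the same order (0.621 [0.319–1.18]). Ubiquitin ligase genes gave 61 members, with 6 higher (9.84%), 6 lower (9.84%), a median of 0.995 and 1 called, Fbxo38. Exons 2 to 4 of Fbxl17, also of an F-box protein, had 57 counts in penumbra and 46 in core occipital (1.07 [0.712–1.61]). Exons 2 to 5 of Fbxw4 had 43 and 25 counts in the same order (1.48 [0.886–2.53]), and exons 14 to 19 of the ligase gene Herc4 had 46 and 53 (0.748 [0.493–1.13]). The summed counts of this list without Fbxo38 had a ratio of 0.999 [0.927–1.08].

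Actin cytoskeleton genes gave 44 members, with 8 higher (18.2%), 4 lower (9.09%), a median of 0.978 and 0 called. Among the 8, members from Abi2, Ank2 and Myo9a (exons 42 and 43) each had 7 counts in penumbra and 3 in core occipital. Their ratio of 2.01 also passes 2-fold only narrowly. Exons 3 and 4 of Enah, which extends actin filaments, had 33 counts in penumbra and 11 in core occipital (2.59 [1.28–5.67]), and exons 11 to 15 of Epb41l1 had 31 and 53 in the same order (0.504 [0.313–0.800]). Exons 2 and 3 of Epb41l3 had 45 counts on each side (0.862 [0.558–1.33]), and exons 7 to 16 of the myosin gene Myo9a had 49 counts in penumbra and 39 in core occipital (1.08 [0.697–1.69]). The summed counts of the list had a ratio of 0.916 [0.844–0.993].

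Chromatin and Mediator genes gave 89 members, with 11 higher (12.4%), 12 lower (13.5%), a median of 0.986 and 0 called. Exons 3 to 7 of Phf21a, a histone reader, had 256 counts in penumbra and 230 in core occipital (0.960 [0.800–1.15]), and exon 2 of Kat6b, a histone acetyltransferase, had 248 and 217 in the same order (0.986 [0.818–1.19]). The ends of the range among members with 30 or more counts were exons 6 to 8 of Kdm4c, a histone demethylase, with 21 counts in penumbra and 11 in core occipital (1.65 [0.759–3.78]), and exons 3 to 5 of the remodeler gene Chd2, with 14 and 16 in the same order (0.755 [0.341–1.65]).

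Genes of pyruvate entry and the citric acid cycle, with those of propionyl-CoA entry into it, gave 14 members, with 2 higher (14.3%), 1 lower (7.14%), a median of 1.11 and 0 called. The members past 2-fold, chosen after their values were seen, include both directions of Pcca, a subunit of propionyl-CoA carboxylase and no enzyme of the cycle itself. Its exons 15 to 19 had 9 counts in penumbra and 3 in core occipital, and its exons 17 to 19 had 3 and 13 in the same order. The other higher member was exons 8 to 10 of Dlst, of the oxoglutarate dehydrogenase complex, with 9 counts in penumbra and 2 in core occipital. Their summed counts were 253 in penumbra and 176 in core occipital, a ratio of 1.24 [1.02–1.51]. Without Ogdh, the oxoglutarate dehydrogenase gene, the ratio was 1.15 [0.906–1.47]. The Ogdh circRNAs together had 90 counts in penumbra and 54 in core occipital (1.44 [1.01–2.05]). Of these, the ring of exons 3 to 5 (chr11:6313788-6324922) had 7 counts on each side (0.862 [0.258–2.88]). The rings that end at 6317080 had 48 and 25 counts in penumbra, and 28 and 15 in core occipital. Exon 7 of Cs, citrate synthase, had 20 counts in penumbra and 14 in core occipital (1.23 [0.592–2.64]).

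**Figure D4:**
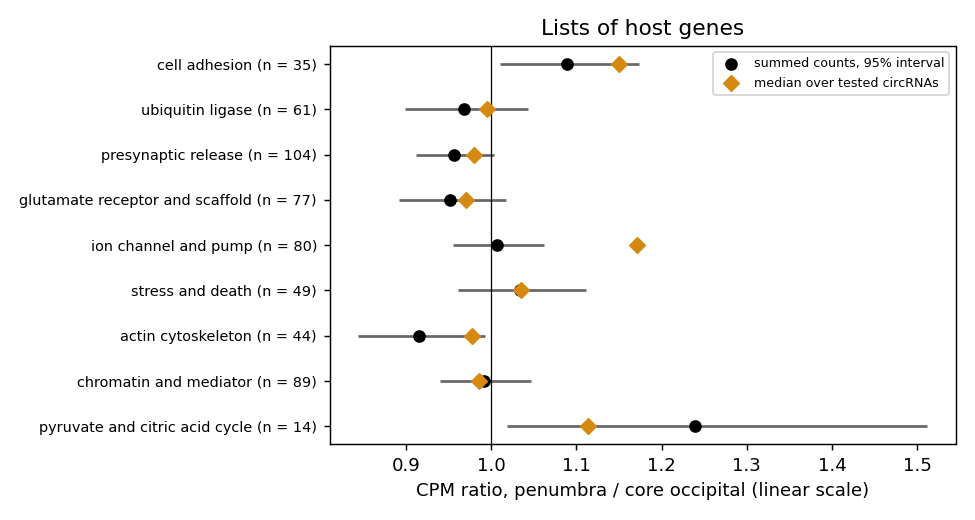
For each list of host genes, black points show the CPM ratio of summed counts of penumbra to core occipital with its 95% interval (counting error only), and orange diamonds the median ratio of its members, whose number is n. The summed ratios lie between 0.916 for actin cytoskeleton and 1.24 for the citric acid cycle.

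Cell type markers can be read here through circRNAs alone, and they yielded few. None of the marker lists is of penumbra or of core, so they do not check the tissue labels. Microglial markers gave no circRNA in either library. Endothelial markers had 3 counts in penumbra and 3 in core occipital, oligodendrocyte markers 27 and 21 (1.11 [0.604–2.06]) and astrocyte markers 27 and 20 (1.16 [0.629–2.19]), each in the same order. Markers of excitatory cortical neurons had 148 counts in penumbra and 131 in core occipital (0.974 [0.765–1.24]). Markers of striatal neurons had 169 counts in penumbra and 180 in core occipital (0.810 [0.652–1.00]), most of them from Foxp1, which cortical neurons also express. Of these, Bcl11b, which also marks deep cortical layers, had 20 counts in penumbra and 32 in core occipital (0.539 [0.292–0.972]). Pde10a, a striatal phosphodiesterase, had 17 and 21 in the same order (0.698 [0.346–1.39]), and Drd1, Drd2, Adora2a, Penk and Ppp1r1b gave none. Inhibitory neuron markers had 12 counts in penumbra and 17 in core occipital, and hippocampal granule cell markers 1 and 2. Whether the makeup of cells differs between the tissues, and its part in the results above, was not tested.

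By structure, the libraries were close. Rings whose ends both fell on boundaries of exons of one gene held 90.7% of counts in penumbra and 90.6% in core occipital (1.00 [0.991–1.01]), and junctions with 1 end on a boundary 7.01% and 7.03% in the same order. Single-exon rings held 7.94% of counts in penumbra and 8.44% in core occipital (0.940 [0.910–0.971]), and rings of 2 or 3 exons 36.7% and 35.4% (1.04 [1.02–1.06]). Rings made of untranslated exons alone held 2.02% of counts in penumbra and 1.78% in core occipital (1.13 [1.06–1.21]), a class that includes the Atxn1 rings. Junctions that span over 100 kilobases held 4.50% of counts in penumbra and 4.43% in core occipital (1.02 [0.971–1.06]). Across the 2963 members with a spliced sequence, the rank correlation of the log2 ratio was -0.06 with GC content and -0.10 with spliced length. Those points share the same pair of libraries and the values are a description.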

How the data were processed

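Ribosomal RNA-depleted, strand-specific libraries were sequenced, per the labels' protocols. The authors deposited whole-number circRNA read counts, without normalization. TopHat2 2.0.10, Bowtie and the build mm9 are named in the submitters' processing notes, whereas the deposited coordinates lie on GRCm38: 89.1% of starts fell on GENCODE M21 exon starts, and 0.192% when moved by 1 base. The circRNA caller is not given in the sources used here. The deposited genomic span served only to class junctions by length, and the FPKM table was not used.

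Host genes, exon numbers (along the transcript with the most exons that holds both ends, protein-coding preferred) and spliced sequences came from GENCODE M21. Strand is that of the host, so a gene and an antisense partner cannot be separated. Columns were matched to libraries by their names in the labels. Counts were scaled to each library's circRNA total, and a count of 0 was set to 3 for ratios. Python 3.11.15, scipy 1.17.1, R 4.3.3, edgeR 4.0.16 and DESeq2 1.42.0 were used. Fisher's exact test was tried on simulated counts that held counting error only, with changes put into deep circRNAs alone. That trial does not show how the test behaves with further variation or at low counts. Named were called circRNAs, the 10 smallest p a direction, the 10 most abundant, the 10 nearest to a ratio of 1, those at 0 on one side, 5 hosts a direction, each list's extremes and all rings of hosts called or near. The Nectin3 inner start and the rings named within hosts that were not called were chosen after their values were seen. Members and lists were chosen with earlier results of these data known. Alternatives were other scalings, count minimums, junction classes, GC correction and edgeR's exact test.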

Additional observations from a re-analysis of the deposited data

How the results depend on the processing

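Nectin3 and Fbxo38 stayed called with TMM factors (log2 shift of -0.01), with a count minimum of 30, with junctions on exon boundaries only and with the GC trend removed. DESeq2 size factors gave 4 higher (Nectin3, Stxbp5l, Vrk2 and Bcl2l13) and 0 lower calls, and 9 hosts higher. They came out as 1 for both libraries, because the median raw count ratio over the 11368 shared circRNAs was 1, and 1956 of these had 1 count on each side. Taken over members alone, a choice made after seeing the data, they gave the calls of total scaling for circRNAs. Without a minimum count, so with a larger family of tests, the calls numbered 0 higher and 0 lower (Nectin3 at an adjusted p of 0.212, Fbxo38 at 0.0945, 533 at an unadjusted p under 0.05), and 4177 were past 2-fold higher and 4923 lower. At 30 counts these were 23 and 17. Without the fold rule 2 were higher, Ssbp2 and Nectin3. Within 25% 12 were alike. edgeR's exact test called 0 circRNAs at a coefficient of variation of 0.2 (73 at an unadjusted p under 0.05) or 0.1 (145), and 0 hosts in either direction (40 and 98). Host calls higher were 0 with TMM factors (177 at an unadjusted p under 0.05), with DESeq2 size factors over members (178) and with no count filter (256), against 1. No named circRNA changed its call with TMM factors or the GC trend removed. Depth limits likeness to members of 119 or more counts. No paired analysis was possible because each tissue has 1 library.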
